A study of Homo sapiens with 10 samples.

Results

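The metallothionein genes were followed in A253 cells, a human line from a primary squamous cell carcinoma of the salivary gland, in which DUSP1 had been targeted. The 9 genes MT1A, MT1E, MT1F, MT1G, MT1H, MT1L, MT1M, MT1X and MT2A were taken by name from the table of raw counts, which holds 58735 genes. RNA was sequenced in 3 groups of 2 libraries each. The control group carried a guide RNA against dTomato. The other groups, Cl1 and Cl10, were clones with guide RNAs against DUSP1, a phosphatase that inactivates MAP kinases, in which exon 2 had been removed from one allele and which had been picked for the lack of detectable DUSP1 protein. All the cells carried lentiviral vectors for a guide RNA and for Cas9. Each clone came from a single cell and is therefore 1 clone of its genotype, whereas the origin of the control as a pool or a clone is not given in the sources used here. The labels do not say whether the libraries of a group came from separate cultures, so the p-values measure only the spread between these libraries. The labels name no added metal and no treatment.

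Metallothioneins are small proteins, very rich in cysteine, that bind zinc and copper ions through their thiol groups and also trap cadmium. Their genes are switched on by metals through MTF1, a transcription factor that binds zinc and acts at metal response elements in their promoters, and glucocorticoids and oxidative stress also induce several of them. MT2A and the MT1 genes are expressed in many epithelia, including squamous epithelium, while MT3 and MT4 are more restricted.

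All 9 genes lay in one cluster on 16q13 in hg38 (GENCODE v44), from MT2A at chr16:56608584-56609497 to MT1X at chr16:56682470-56684196, and MT1G was the 1 member on the minus strand. Between these ends stood MT1L (chr16:56617563-56618680), MT1E (chr16:56625475-56627112), MT1M (chr16:56632659-56633981), MT1A (chr16:56638666-56640087), MT1F (chr16:56657731-56660698), MT1G (chr16:56666730-56668065) and MT1H (chr16:56669814-56671129). MT1B, MT1CP, MT1DP, MT1IP and MT1JP, family genes and pseudogenes outside the 9, lie among them. MT1L is annotated as a transcribed pseudogene and the other 8 as protein coding. The canonical coding sequences of 7 of these 8 genes had 61 or 62 codons, of which 20 encoded cysteine. The canonical transcript of MT1E, 1 of 3 annotated for this gene, had a longer reading frame of 127 codons with 14 cysteine codons. Reading frames of the other MT1E transcripts were not examined. The coding sequences of MT2A, the most abundant member, and MT1X, at the other end of the cluster, are shown because they display the cysteine repeat and the likeness that bears on how reads are assigned. They were read from hg38 along the GENCODE v44 transcripts, with the cysteine codons in capitals.
MT2A: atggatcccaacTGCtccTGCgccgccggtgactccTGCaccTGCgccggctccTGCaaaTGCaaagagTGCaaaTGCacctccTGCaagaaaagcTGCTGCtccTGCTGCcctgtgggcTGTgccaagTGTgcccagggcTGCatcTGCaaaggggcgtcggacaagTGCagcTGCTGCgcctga
MT1X: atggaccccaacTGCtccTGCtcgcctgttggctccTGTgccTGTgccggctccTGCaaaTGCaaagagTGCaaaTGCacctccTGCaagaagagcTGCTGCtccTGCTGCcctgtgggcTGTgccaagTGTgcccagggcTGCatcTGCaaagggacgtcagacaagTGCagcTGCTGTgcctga
These 186-base sequences differed at 14 positions, an identity of 92.5%. Over the 6 members with a coding sequence of that length, pairwise identity ran from 88.7% for MT1F and MT1X to 93.5% for MT1A and MT1H. Of the 50-base stretches in the transcripts of MT2A, 4.48% also occurred in transcripts of another gene, and the shares were 7.1% for MT1E, 1.24% for MT1F and 18.7% for MT1X. Of the 100-base stretches none was shared for MT2A, MT1E and MT1F, and 11.6% were shared for MT1X. MT1X overlaps the lncRNA ENSG00000259827 by 321 exonic bases on the same strand, and that lncRNA was listed at 0 in every library. MT1L lies entirely within ENSG00000291105, another lncRNA, so all of its stretches were shared and its counts cannot be assigned to it alone. How the authors' counting treated reads that match several genes is not given in the sources used here.

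The 250 bases before the start of MT2A, MT1X and MT1H, the members found in the RefSeq promoter table (GRCh38.p14), are shown because they carry the elements through which metals act on these genes. The first of these genes was abundant, the second low and the third without counts. Capitals mark the metal response element core, TGCACNC or TGCGCNC, searched on both strands, so that a match on the other strand reads as its reverse complement.
MT2A (chr16:56608334-56608583, plus strand): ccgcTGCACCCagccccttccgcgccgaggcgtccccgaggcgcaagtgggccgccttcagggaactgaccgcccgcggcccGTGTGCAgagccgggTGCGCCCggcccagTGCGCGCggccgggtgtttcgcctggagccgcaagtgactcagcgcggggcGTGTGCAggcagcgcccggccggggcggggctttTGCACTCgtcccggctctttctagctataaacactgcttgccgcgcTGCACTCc
MT1X (chr16:56682220-56682469, plus strand): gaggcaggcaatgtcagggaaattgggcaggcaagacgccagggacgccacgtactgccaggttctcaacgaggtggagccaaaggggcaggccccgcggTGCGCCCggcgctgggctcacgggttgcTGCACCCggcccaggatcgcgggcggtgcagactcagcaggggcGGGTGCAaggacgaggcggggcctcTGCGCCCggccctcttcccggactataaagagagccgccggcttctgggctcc
MT1H (chr16:56669564-56669813, plus strand): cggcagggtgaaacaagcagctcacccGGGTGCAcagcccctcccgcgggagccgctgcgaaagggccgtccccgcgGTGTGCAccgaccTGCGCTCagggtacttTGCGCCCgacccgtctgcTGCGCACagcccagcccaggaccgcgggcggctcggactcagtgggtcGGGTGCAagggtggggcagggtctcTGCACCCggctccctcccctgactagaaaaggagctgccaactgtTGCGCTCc
The core matched 7 times in MT2A, 4 times in MT1X and 8 times in MT1H. Of all 35116 promoters of this length, 24.8% held at least 1 match and 42 promoters (0.12%) held at least 5. The MT2A window also held 1 match to the antioxidant response element (TGACNNNGC, in 10.9% of all promoters), 1 to the AP-1 site (TGANTCA, in 6.57%) and 1 to the TATA box (TATAAA, in 10.7%). The antioxidant and AP-1 matches lie in the same stretch, tgactcagc, so they are not separate sites. MT1X held 1 antioxidant response element, 1 TATA box and no match to the AP-1 letters, and MT1H held a match to none of these 3 motifs. Of these 3 genes, MT1H had the most matches to the metal response element core and no counts.

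A253 expressed 4 of the 9 metallothioneins at a level that could be tested. MT1A, MT1G, MT1H and MT1M were listed at 0 in all 6 libraries. A count of 0 allows up to 3 counts, which is between 0.0441 and 0.0624 CPM depending on the library (counts scaled to the library total and the TMM factor of edgeR). MT1L had 3 and 9 counts in the control, 4 and 5 in Cl1, and 3 and 0 in Cl10, and did not pass the filter on low counts in any comparison. On the scale of CPM per kilobase over the union of a gene's annotated exons, MT2A had a mean of 327 ± 91.9 (SD, n = 2) in the control. Ranks were taken on the mean over all 6 libraries, clones included, and not on the control alone. MT2A ranked at number 107 of the 36265 genes with a count and an annotated length, in the top 0.295%. MT1E followed with 87.0 ± 10.5 (SD, n = 2) and rank 507. MT1X had 5.01 ± 0.0302 (SD, n = 2) and rank 7194, and MT1F had 3.19 ± 0.0234 (SD, n = 2) and rank 9229. The order MT2A, MT1E, MT1X and MT1F was the same in all 3 groups and no neighbours in it overlapped within a group. On this scale MT2A made up between 74.9% and 79.2% of the family in a library and MT1E between 18.4% and 22.8%. These levels depend on the length used. Per kilobase of the canonical transcript, a scale added after the levels were seen, MT2A had 745 ± 209.5 (SD, n = 2) in the control, MT1E 123 ± 14.8, MT1X 21.4 ± 0.129 and MT1F 13.9 ± 0.102. By the mean over all 6 libraries the last 3 ranked at 708, 3621 and 5295. MT2A then made up between 80.0% and 84.1% of the family and MT1E between 11.99% and 15.1%. The canonical transcript of MT1E had 746 bases, against 401, 404 and 425 for MT2A, MT1X and MT1F. The order of the 4 did not change.

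**Figure D1:**
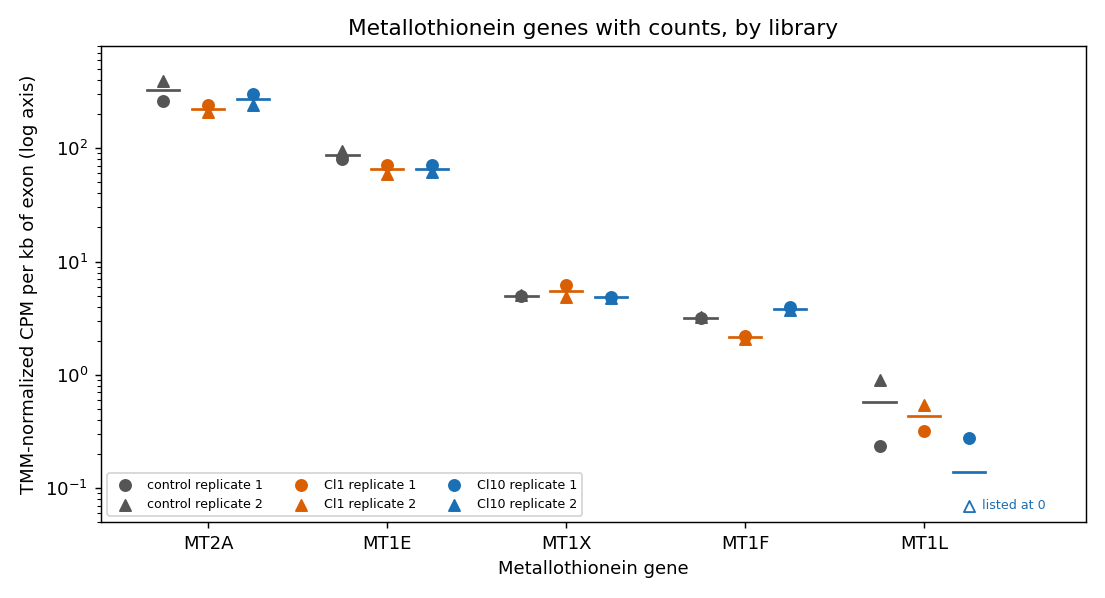
TMM-normalized CPM per kilobase of exon (log axis) of the 5 metallothionein genes with counts, with 1 point per library (circles for replicate 1, triangles for replicate 2) and a line at the mean of the 2 libraries of each group. MT2A and MT1E lie far above MT1X and MT1F in every library, MT1F is lowest in Cl1 and highest in Cl10, and the open triangle marks the Cl10 library in which MT1L was listed at 0.

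The libraries held 47016495 to 70986593 counts. DUSP1 itself had 12.9 and 11.04 CPM in the control, 5.28 and 6.15 in Cl1, and 8.60 and 7.21 in Cl10. It fell by 1.07 on the log2 scale in Cl1 (adjusted p = 0.000292, edgeR) and by 0.59 in Cl10 (adjusted p = 0.0113, edgeR). Without Cl10 replicate 2 the Cl10 value was -0.48 and no longer passed. Of the squamous epithelial markers 9 of 9 stood at 1 CPM or more in at least 1 library, with a summed level of 14710 to 17130 CPM. None of 10 salivary acinar markers reached 1 CPM (2 were listed at 0), and they summed to 0.229 to 0.470 CPM. Of 12 stromal, endothelial and leukocyte markers 3 reached 1 CPM, and these 12 genes summed to 47.3 to 56.9 CPM in the control and Cl1 and to 34.6 and 35.1 in Cl10. Their part in the results was not tested. The control libraries differed from each other with transcript length. The median log2 ratio of replicate 2 to replicate 1 in the control was 0.28 over 815 genes with a canonical transcript under 1000 bases and -0.17 over 4614 genes with one over 4000 bases, among genes with a mean of at least 5 CPM. Between the replicates of Cl1 these medians were -0.08 and 0.02, and between those of Cl10 they were -0.06 and 0.02. The canonical transcripts of the 4 tested metallothioneins were between 401 and 746 bases long, so they belong to the short class.

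Cl1 was compared with the control to ask which members differed in a clone with targeted DUSP1. MT2A, MT1E and MT1F fell in Cl1, with log2 fold changes between -0.57 and -0.41, and MT1X did not pass the test. MT2A had 239 and 358 CPM in the control and 219 and 190 CPM in Cl1. Both Cl1 libraries lay below both control libraries, but the control libraries stood further apart from each other than the lower one stood from Cl1. MT2A fell by 0.54 on the log2 scale (SE, the standard error, 0.17, adjusted p = 0.0351 by the quasi-likelihood test of edgeR). MT1E had 83.7 and 99.3 CPM in the control and 74.8 and 62.7 CPM in Cl1, again without overlap. It fell by 0.41 (SE 0.13, adjusted p = 0.0346, edgeR). MT1F, a member with fewer counts, had 5.88 and 5.94 CPM in the control and 4.09 and 3.83 CPM in Cl1. For this gene the libraries of each group were close to each other and the groups well apart, and it fell by 0.57 (SE 0.15, adjusted p = 0.0172, edgeR). MT1X had 8.61 and 8.69 CPM in the control against 10.6 and 8.36 in Cl1, so that the Cl1 libraries lay on either side of the control, with a log2 fold change of 0.14 (SE 0.15, adjusted p = 0.531, edgeR). As RNA was taken from whole cultures, fewer cells that express a gene and less RNA per cell cannot be told apart.

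Thus 3 of the 4 tested metallothioneins were past an adjusted p of 0.05 in Cl1, all of them lower, where 25.1% of the 20153 genes tested passed in either direction and 12.8% passed as lower. With an absolute log2 fold change above 1 as a further limit none of the 4 was called with edgeR or with DESeq2, against 7.54% of all genes. An unadjusted p under 0.05 was reached by 3, against 37.3% of all genes. The split of all passing genes was 2489 higher and 2575 lower with TMM scaling, and 1942 higher and 3191 lower with library totals alone. The median log2 fold change of the 4 was -0.48, against -0.01 for all genes tested. The 815 genes with transcripts under 1000 bases and a mean of at least 5 CPM had a median of -0.15 in this comparison. That value is a log2 ratio of group mean CPM and not an edgeR fold change. The fall of MT2A rested on control replicate 2. Without that library the log2 fold change was -0.22 (adjusted p = 0.156, edgeR), and without control replicate 1 it was -0.81. With a library left out, the lone library of its group was assumed to vary like the other group. Without Cl1 replicate 1 or 2 no member passed. MT2A was then at -0.65 and -0.44 (adjusted p = 0.066 and 0.225, edgeR), MT1E at -0.54 and -0.28 (adjusted p = 0.0689 and 0.395, edgeR) and MT1F at -0.62 and -0.52 (adjusted p = 0.0615 and 0.113, edgeR). MT1E and MT1F remained past the threshold without either control library. With the trend of each library with transcript length and GC content subtracted, MT2A, MT1E and MT1F had log2 fold changes of -0.60, -0.41 and -0.62 and all 3 passed.

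**Figure D2:**
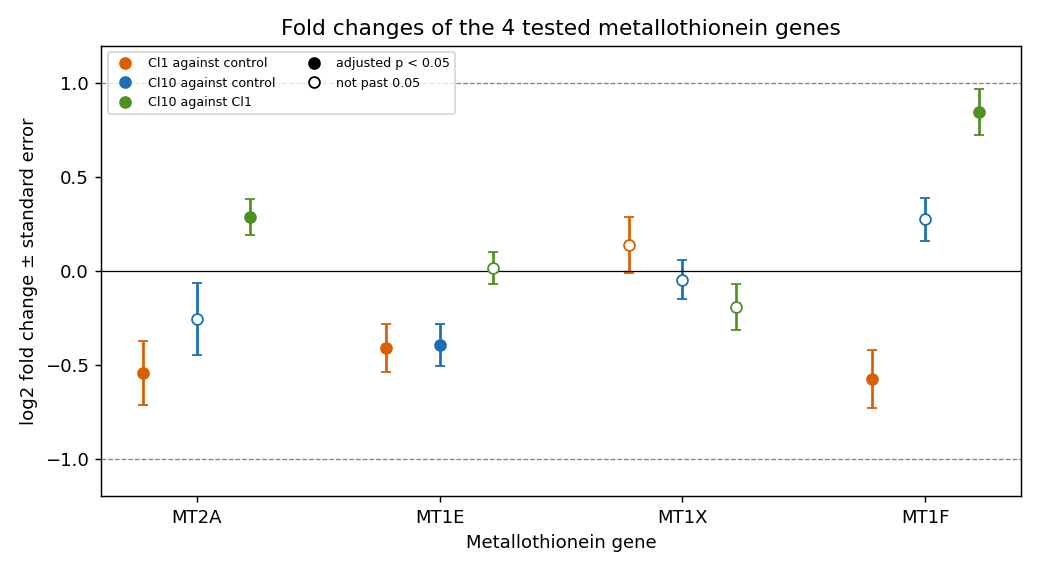
log2 fold change with its standard error (bars) of the 4 tested metallothioneins in the comparisons of Cl1 with the control, Cl10 with the control and Cl10 with Cl1, with filled points at an adjusted p under 0.05 and dashed lines at the fold-change limit. No point reaches a dashed line, and MT1F is lower than the control in Cl1 (-0.57) and 0.85 higher in Cl10 than in Cl1.

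Cl10 was compared with the same 2 control libraries, so that the fold changes of both clones share any deviation of a control library. Of the 4 tested members MT1E alone passed the test. MT1E had 74.1 and 64.7 CPM in Cl10, below both control libraries, and fell by 0.39 (SE 0.11, adjusted p = 0.0279, edgeR). Without Cl10 replicate 1 or 2 MT1E was at -0.49 and -0.30 (adjusted p = 0.0671 and 0.291, edgeR). MT2A had 277 and 222 CPM in Cl10, of which the first lay between the control libraries. Its log2 fold change was -0.26 (SE 0.19, adjusted p = 0.32, edgeR). The value depended on which control library was used, at -0.52 without control replicate 1 and 0.06 without control replicate 2. MT1F had 7.29 and 6.96 CPM, above both control libraries, with a log2 fold change of 0.28 (SE 0.11, adjusted p = 0.0884, edgeR), and 0.34 (adjusted p = 0.0319, edgeR) once the trend of each library with transcript length and GC content was subtracted. MT1X had 8.40 and 8.30 CPM, just under both control libraries, and a log2 fold change of -0.05 (SE 0.10, adjusted p = 0.745, edgeR).

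In Cl10, then, 1 of 4 tested metallothioneins was past an adjusted p of 0.05, where 42.5% of the 19875 genes tested passed in either direction and 21.8% as lower. None was called with the fold-change limit by edgeR or DESeq2, against 13.4% of all genes, and 2 had an unadjusted p under 0.05, as did 51.3% of all genes. The median of the 4 was -0.15, against -0.01 for all genes. For the 815 genes with transcripts under 1000 bases and a mean of at least 5 CPM the median was -0.25. That value is a log2 ratio of group mean CPM and not an edgeR fold change.

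The clones were compared directly to see whether members differed between them. MT1F differed most among the 4. Its Cl10 libraries, at 7.29 and 6.96 CPM, were far above the Cl1 libraries, at 4.09 and 3.83 CPM, with the control in between. The log2 fold change of Cl10 over Cl1 was 0.85 (SE 0.12, adjusted p = 0.000107, edgeR), and the adjusted p stayed under 0.05 in all 13 alternatives, in which the value ran from 0.79 to 0.94. MT2A was higher in Cl10 by 0.29 (SE 0.10, adjusted p = 0.0244, edgeR). Its lower Cl10 library (222 CPM) was nearly level with its higher Cl1 library (219 CPM), and without Cl10 replicate 1 the value was 0.12 (adjusted p = 0.446, edgeR). In one fit over all 6 libraries it was 0.28 (adjusted p = 0.226, edgeR). The libraries of MT1E overlapped between the clones, with a log2 fold change of 0.02 (SE 0.08, adjusted p = 0.891, edgeR). MT1X gave -0.19 (SE 0.12, adjusted p = 0.22, edgeR), and its Cl10 libraries (8.40 and 8.30 CPM) were close to the lower of the Cl1 libraries. The MT1X value rested on the choice of Cl1 library, at -0.0019 without Cl1 replicate 1 and -0.36 (adjusted p = 0.0029, edgeR) without Cl1 replicate 2. Here 2 of 4 members were past an adjusted p of 0.05, both higher in Cl10, where 49% of 19818 genes passed in either direction and 24.9% as higher. None was called with the fold-change limit by either tool, against 10.8% of all genes, and 2 had an unadjusted p under 0.05, as did 55% of all genes.

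Summed over the family, metallothionein counts came to 338 and 472 CPM in the control, 309 and 265 in Cl1, and 367 and 302 in Cl10. The Cl1 libraries lay below both control libraries, and the Cl10 libraries lay on either side of the lower one. The log2 ratio of the means was -0.50 for Cl1 and -0.28 for Cl10 against the control. Since MT2A dominates the sum, it carries the same dependence on control replicate 2. Within the family, MT1F made up 1.74% and 1.26% of metallothionein counts in the control, 1.33% and 1.44% in Cl1, and 1.99% and 2.31% in Cl10, so both Cl10 libraries had the larger share. MT1X made up 2.55% and 1.84% in the control, 3.44% and 3.15% in Cl1, and 2.29% and 2.75% in Cl10, with the largest share in Cl1.

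The remaining metallothionein genes were at or near background. Of 12 further genes and pseudogenes of the family (MT1B, MT1HL1, MT3, MT4 and 8 pseudogenes), the summed counts were 15 to 37 per library. MT2P1, a processed copy on chromosome 4, had 3 to 18 counts and MT1DP had 3 to 11. Both were tested in Cl10 against the control and neither passed.

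Genes that act on metallothioneins or share their work were counted in lists, to be read against the 25.1% of all genes that passed in Cl1 (12.8% lower) and the 42.5% in Cl10 (21.8% lower). Among 8 regulators, all tested, none passed in Cl1 and 1 rose and 1 fell in Cl10. MTF1, the metal sensor, had 50.7 and 39.3 CPM in the control, 41.7 and 42.6 in Cl1 and 39.2 and 42.0 in Cl10, so the clones lay within or at the edge of the control range. Its difference from the control was -0.09 in Cl1 on the log2 scale (adjusted p = 0.64, edgeR) and -0.14 in Cl10 (adjusted p = 0.397, edgeR). NR3C1, the glucocorticoid receptor, had 160 and 120 CPM in the control, 149 and 155 in Cl1 and 173 and 176 in Cl10, with a log2 fold change of 0.12 (adjusted p = 0.589, edgeR) and 0.32 (adjusted p = 0.0988, edgeR). In Cl10 the regulators that passed were STAT3, a transcription factor of cytokine signalling, at 0.48 (adjusted p = 0.00852, edgeR), and SP1, a general activator, at -0.42 (adjusted p = 0.0261, edgeR).

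The zinc and copper lists stand beside the same 25.1% of all genes in Cl1 and 42.5% in Cl10. Of 7 tested SLC30 genes, which carry zinc out of the cytosol, 1 fell in Cl1, and 1 rose and 1 fell in Cl10. SLC30A1, the zinc exporter of the plasma membrane and itself a target of MTF1, had 38.4 and 31.7 CPM in the control, 32.4 and 33.3 in Cl1, and 50.2 and 55.2 in Cl10. Both Cl10 libraries stood above all the others. Its difference from the control was -0.09 on the log2 scale in Cl1 (adjusted p = 0.605, edgeR) and 0.59 in Cl10 (SE 0.11, adjusted p = 0.00571, edgeR). Of 13 tested SLC39 genes, which carry zinc into the cytosol, 1 rose in Cl1, and 4 rose and 2 fell in Cl10. SLC39A1, a zinc importer, had 1.85 and 1.33 CPM in the control, 3.01 and 2.44 in Cl1 and 3.19 and 3.45 in Cl10. It rose by 0.78 in Cl1 (adjusted p = 0.0257, edgeR) and by 1.06 in Cl10 (adjusted p = 0.00642, edgeR). In Cl1 SLC39A1 did not pass with DESeq2 (adjusted p = 0.0617), without control replicate 2 (0.57) or without Cl1 replicate 1 (0.61). Of 12 tested genes of copper handling 1 rose in Cl1, and 2 rose and 2 fell in Cl10. None of these 12 was past the fold-change limit.

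Lists of genes that respond to other inducers of metallothioneins were also counted. Of 9 tested genes induced by glucocorticoids, 2 rose and 5 fell in Cl1, with a median of -0.45, and 2 rose and 3 fell in Cl10, with a median of 0.04. These were 7 of 9 in Cl1, against 25.1% of all genes, and 5 of 9 in Cl10, against 42.5%. TSC22D3, a glucocorticoid-induced regulator of inflammation, had 77.1 and 63.1 CPM in the control, 25.2 and 36.4 in Cl1, and 22.8 and 23.1 in Cl10. It fell by 1.19 in Cl1 (adjusted p = 0.000238, edgeR) and by 1.61 in Cl10 (adjusted p = 0.000128, edgeR). KLF9, a transcription factor, had 23.0 and 17.9 CPM in the control, 9.11 and 11.01 in Cl1, and 3.21 and 2.79 in Cl10. It fell too, to log2 fold changes of -1.03 in Cl1 (adjusted p = 0.000444, edgeR) and -2.76 in Cl10 (adjusted p = 7.3e-05, edgeR). PER1, a clock gene, was the third that fell in both clones, by 0.83 (adjusted p = 0.000396, edgeR) and 0.55 (adjusted p = 0.00603, edgeR). CEBPD, a transcription factor, and FKBP5, a chaperone partner of the glucocorticoid receptor, fell in Cl1 by 0.59 and 0.45. GLUL and ERRFI1 rose in both.

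Of 10 genes of the heat shock and metal stress response, 1 fell in Cl1, where 25.1% of all genes passed, and 5 rose and 1 fell in Cl10, where 42.5% did. HSPA1A, an inducible chaperone, had 47.8 and 84.8 CPM in the control, 77.3 and 63.0 in Cl1, and 155 and 146 in Cl10. It rose by 1.19 in Cl10 (adjusted p = 0.00662, edgeR) while the value in Cl1 was 0.09 (adjusted p = 0.799, edgeR). The Cl1 value turned on the control library, at -0.27 (adjusted p = 0.0329, edgeR) without control replicate 1 and 0.56 (adjusted p = 5.43e-06, edgeR) without control replicate 2. HSPA1B, its near-identical neighbour with which reads can be exchanged, rose by 1.01 in Cl10 (adjusted p = 0.00777, edgeR), and HSPA8, the constitutive form, by 1.02 (adjusted p = 0.00388, edgeR). HSPB1 was the 1 gene of the list that fell in Cl10, with a log2 fold change of -0.77 (adjusted p = 0.00205, edgeR). It had 1152 and 1390 CPM in the control, 1231 and 1186 in Cl1, and 772 and 718 in Cl10. HMOX1, which is induced by heavy metals and oxidative stress, had log2 fold changes of -0.07 (adjusted p = 0.776, edgeR) and -0.27 (adjusted p = 0.117, edgeR). The median over the heat shock list was 0.05 in Cl1 and 0.23 in Cl10, against -0.48 and -0.15 for the metallothioneins.

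The neighbours of the cluster on 16q13 were examined to see whether genes around it moved together. Test values were read out for 19 of 20 listed neighbours, and 1 rose and 1 fell in Cl1, while 5 rose and 2 fell in Cl10. These were 2 of 19 and 7 of 19, against 25.1% and 42.5% of all genes. The other neighbour, PSME3IP1, was matched by its identifier and not by name, and its test values were not read out. PSME3IP1 had 98.3 and 111 CPM in the control, 87.7 and 89.9 in Cl1, and 96.3 and 91.8 in Cl10. Over the 50 tested genes nearest to the cluster the median difference, in log2 units, was -0.05 in Cl1, 0.00049 in Cl10 and 0.04 for Cl10 over Cl1. SLC12A3, a sodium chloride cotransporter gene that lies beyond NUP93 from MT1X, had 3 and 1 counts in the control, 58 and 47 in Cl1, and 27 and 30 in Cl10. It passed the test in both clones (adjusted p = 6.19e-05 in Cl1 and 0.00167 in Cl10, edgeR), and no fold is given since the control was at or under 3 counts. NLRC5, an activator of MHC class I genes, had 39.9 and 32.3 CPM in the control, 39.9 and 37.5 in Cl1 and 74.7 and 70.2 in Cl10, and rose by 1.01 in Cl10 (adjusted p = 0.000695, edgeR). CETP, a lipid transfer protein with 14 to 66 counts per library, rose by 1.66 in Cl10 (adjusted p = 0.00451, edgeR). GNAO1, at the other side of the cluster, fell in both clones, by 0.94 in Cl1 (adjusted p = 0.000381, edgeR) and by 0.72 in Cl10 (adjusted p = 0.00323, edgeR). STAT3, SP1, SCO2, PER1, CEBPD, FKBP5, GLUL, ERRFI1, HMOX1, HSPB1 and GNAO1 were singled out after their values were seen. With the median of the 50 neighbours subtracted, MT2A in Cl1 was at -0.49 (adjusted p = 0.0522, edgeR) and MT1E at -0.36 (adjusted p = 0.0588, edgeR), which left MT1F as the 1 member past the threshold.

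**Figure D3:**
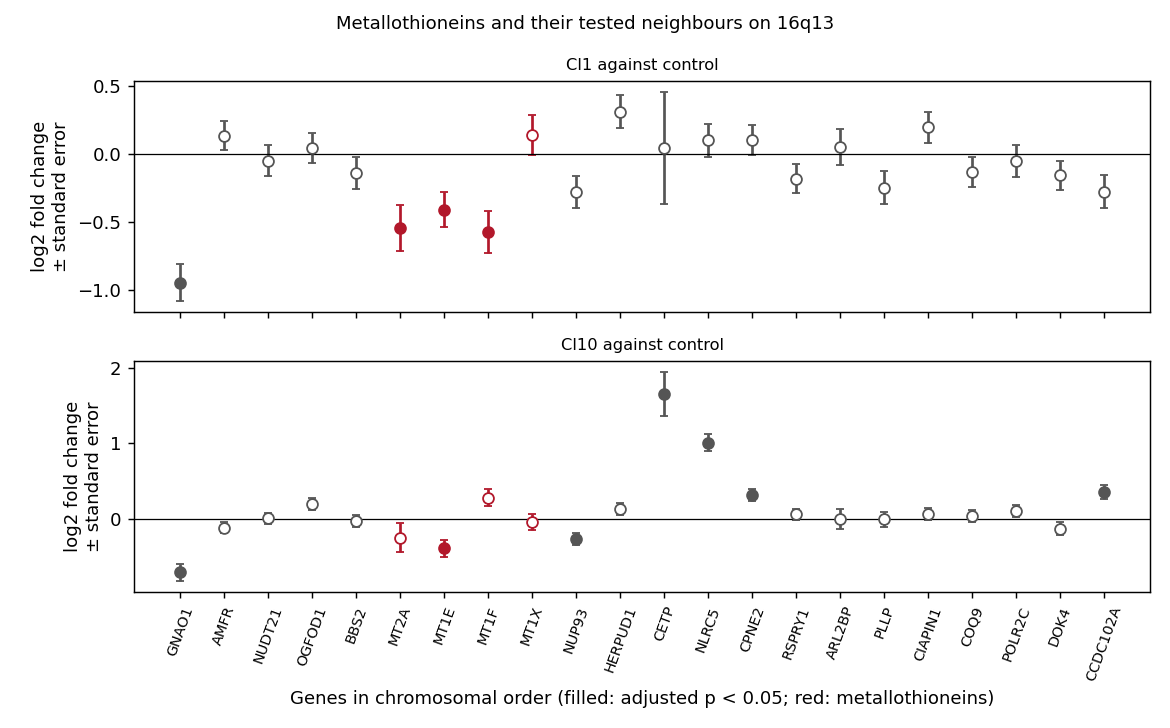
log2 fold change with its standard error (bars) of the 4 tested metallothioneins (red) and their tested listed neighbours (grey) in chromosomal order, for Cl1 (top) and Cl10 (bottom) against the control, with filled points at an adjusted p under 0.05. MT2A, MT1E and MT1F lie below the line in Cl1, between BBS2 and NUP93, which did not pass there. SLC12A3 is not drawn, since its control libraries were at or under 3 counts. Test values of PSME3IP1 were not read out.

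The other metallothioneins were left out of a search for genes with a pattern like that of MT2A. The most alike over the 6 libraries were PAXX, MRPL52, NDUFAF4, CENPW and KMT2E-AS1, among 11651 genes with a mean of at least 5 CPM. The measure was the root mean square difference of log2 CPM after centring each gene, which was 0.0887 for PAXX and 0.101 for KMT2E-AS1. PAXX had 42.5 and 55.2 CPM in the control, 37.5 and 32.8 in Cl1, and 44.5 and 41.1 in Cl10, so that, as for MT2A, the highest level was in control replicate 2 and the lowest in Cl1 replicate 2. MRPL52 showed the same order of these extremes, at 83.7 and 48.9 CPM. The 6 libraries share their depth, length trend and group differences, so these likenesses are a description over 6 points.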

How the data were processed

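RNA-seq libraries from A253 cells (control, Cl1 and Cl10, 2 each) were analysed and those of the SOX2 experiment were left aside. The authors aligned reads to hg38 with HISAT2, counted them per gene with the HTSeq protocol and deposited raw counts without normalization. StringTie and DESeq also stand in the submitters' processing notes, and the gene annotation, tool versions and strand setting are not given in the sources used here. Of 58735 identifiers, 58207 (99.1%) were found in GENCODE v44. Library totals of 47016495 to 70986593 counts set the precision, and the floor of 3 counts covers counting error only. The fits used edgeR 4.0.16 (R 4.3.3) with filterByExpr, TMM, glmQLFit and glmQLFTest, each comparison with its own 4 libraries, with Benjamini-Hochberg adjustment over all genes tested. A gene passed at an adjusted p under 0.05 and was called with an absolute log2 fold change above 1 as well. Standard errors were derived as the unshrunk log2 fold change, without sign, over the root of F. On simulated counts for Cl1 against the control, 200 of 200 genes changed 4-fold were recovered with 8 false calls among 19727 genes. Changes as small as those of the metallothioneins were not simulated, so this gives no recovery rate for them. The metallothioneins and the gene lists were chosen with earlier results of these data known. All 9 metallothioneins and DUSP1 are named, with MTF1, SLC30A1, NR3C1, up to 4 called genes of each list and the 5 genes outside the family most like its most abundant member. Alternatives were DESeq2 1.42.0, its size factors, library totals, no filter, at least 10 counts in every library, 1 fit over 6 libraries, a replicate block, the median of the 50 nearest tested genes taken off and each library left out. A spline trend on transcript length and GC content (5 degrees of freedom each) was added after the genes most like MT2A were seen, and levels per canonical transcript length after the levels were seen. Promoters come from RefSeq and coding sequences from hg38.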

Additional observations from a re-analysis of the deposited data

Results flagged for a closer look

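Members and named genes are given here because the direct comparison of the clones passed an adjusted p of 0.05 (edgeR), so that their difference from the shared control was not the same in Cl10 as in Cl1. Of all 19818 genes tested 49% passed it, and of the metallothioneins 2 of 4. Most of the related genes below were named because they were called in a clone against the control, in comparisons that used the same clone libraries. The metallothioneins that passed were MT1F, with a log2 fold change of Cl10 over Cl1 of 0.85 (adjusted p = 0.000107, edgeR), and MT2A, with 0.29 (adjusted p = 0.0244, edgeR). MT1F was lower than the control in both Cl1 libraries and higher in both Cl10 libraries. MT2A did not pass without Cl10 replicate 1 (adjusted p = 0.446, edgeR) or in one fit over 6 libraries (adjusted p = 0.226, edgeR).

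Among genes related to metallothioneins, the zinc exporter SLC30A1 was higher in Cl10 than in Cl1 by 0.69 on the log2 scale and the glucocorticoid receptor NR3C1 by 0.20. The glucocorticoid-induced genes KLF9 and TSC22D3 were lower in Cl10 than in Cl1 (log2 fold change -1.73 and -0.41). NR3C1 did not pass in one fit over 6 libraries (adjusted p = 0.226, edgeR) or without Cl10 replicate 1 (adjusted p = 0.117, edgeR) or 2 (adjusted p = 0.181, edgeR). TSC22D3 did not pass in that fit (adjusted p = 0.055, edgeR), with library totals alone (adjusted p = 0.0563, edgeR) or without Cl1 replicate 2 (-0.14, adjusted p = 0.0883, edgeR). The chaperones HSPA1A, HSPA8 and HSPA1B were higher in Cl10 by 1.10, 0.75 and 0.93. Of the 10 tested genes of their list, 4 passed as higher in Cl10 and 1 as lower. The lower gene was HSPB1 (log2 fold change -0.69, adjusted p = 3.06e-06, edgeR). Of the neighbours on 16q13, CETP was higher in Cl10 by 1.61 and NLRC5 by 0.91. With 2 libraries per group no test for a single outlying library was made.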

How the results depend on the processing

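Of 4 tested metallothioneins, 3 were past an adjusted p of 0.05 in Cl1, 1 in Cl10 and 2 between the clones. With 1 library left out these numbers ranged from 0 to 3, from 0 to 2 and from 1 to 3. In Cl1 it was 1 with the median of the 50 nearest genes subtracted. In Cl10 it was 2 with no filter, where MT2A also passed (adjusted p = 0.0215, edgeR), and 2 with the length and GC trend subtracted, where MT1F passed. Between the clones it was 1 in a single fit over 6 libraries. With the fold-change limit the count was 0 in every alternative that kept it, and without that limit it was 3, 1 and 2. The replicate block also gave 3, 1 and 2 and changed no member's call. Replicate numbers were not taken as pairs, since the labels do not link them and the correlations of replicate 1 minus replicate 2 across genes were -0.07, -0.02 and 0.01 between the groups. Of 156 member fold changes under alternatives, 132 kept their direction and side of the threshold, 13 lost the threshold, 5 gained it and 6 changed sign. With libraries left out, members with a sign change ran from -0.046 (without Cl1 replicate 1) to 0.31 for MT1X in Cl1, from -0.52 to 0.059 (without control replicate 2) for MT2A in Cl10, and from -0.11 (without Cl1 replicate 2; -0.081 without Cl10 replicate 1) to 0.15 for MT1E between the clones. MT1X in Cl10 was 0.025 with the length and GC trend subtracted, and MT1E between the clones was -0.025 with the neighbour median subtracted. Other named genes with a sign change in Cl1 ran from -0.26 to 0.10 for MTF1, -0.074 to 0.34 for NR3C1, -0.22 to 0.049 for SLC30A1, -0.27 to 0.56 for HSPA1A, -0.057 to 0.60 for HSPA8, -0.24 to 0.48 for HSPA1B, -0.17 to 0.21 for CETP and -0.040 to 0.26 for NLRC5. MTF1 ran from -0.32 to 0.044 in Cl10 and from -0.095 to 0.0026 between the clones. With library totals alone CETP was -0.028 in Cl1 and MTF1 was 0.022 between the clones. Over all genes, 2489 higher and 2575 lower passed in Cl1, against 1461 and 1257 without Cl1 replicate 1 and 1444 and 1417 without Cl1 replicate 2. In Cl10, 4103 and 4336 passed, against 2444 and 2819 without Cl10 replicate 1 and 2376 and 2765 without Cl10 replicate 2. Of 505 alternatives for the other named genes, 465 kept direction and side of the threshold, 11 lost it, 14 gained it and 15 changed sign. The causes were not tested.

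Each group had 2 libraries, both clones share their controls, and a chi-square test put 58.5% of genes past counting noise between the controls, 47.3% in Cl1 and 23.6% in Cl10. The low counts of MT1L and the zeros of MT1A, MT1G, MT1H and MT1M allow no comparison at this depth. The treatment of reads shared between near-identical members is not given in the sources used here.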
